A study of Mus musculus with 12 samples.

Results

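The genes described here are 9 genes of the postsynaptic density, taken by symbol from the deposited tables with the transcript rows of each symbol summed. They are Dlg4, Dlgap1, Dlgap3, Shank1, Shank2, Shank3, Homer1, Camk2a and Camk2b, 9 of 23183 gene symbols in the tables, and all 9 were among the 14541 genes that passed the filter on low counts. For Homer1 its 4 separate RefSeq transcript rows were also followed. The 9 genes were taken by name, with no threshold on a value, and with earlier results of these data known.

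The postsynaptic density is the protein lattice under the membrane of excitatory synapses. Dlg4 encodes PSD-95, which holds glutamate receptors at the membrane, the Dlgap proteins link it to the Shank scaffolds below, and Homer proteins tie Shank to metabotropic glutamate receptors and to the actin-rich spine. Camk2a and Camk2b encode the alpha and beta subunits of the calcium- and calmodulin-dependent kinase II, an abundant enzyme of hippocampal spines that is needed for long-term potentiation. Messenger RNA of Camk2a, of the Shank genes and of Dlgap3 is known to be carried into dendrites.

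RNA sequencing was done on the ventral hippocampus of 12 wild-type male C57BL/6J mice, obtained at 8 weeks of age, with 3 mice in each of 4 groups. Control mice (C) had no treatment. Stress-susceptible mice (SS) had been restrained in tubes for 2 hours a day on 14 days and had no wheel. SES and SER mice were also stress-susceptible after the same restraint and then had a running wheel in the home cage, for 14 days according to the sample titles and for 4 weeks according to the protocol. The running mice had been divided by their behaviour into effective responders (SES) and ineffective responders (SER), so these names stand for groups sorted by outcome and not for assigned treatments. Each library came from 1 mouse, and values are CPM, counts scaled to a common library total, with TMM factors. In bulk tissue, fewer cells of a type and less RNA per cell cannot be told apart.

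Library totals ran from 9323607 to 15707516 counts. All 8 excitatory neuron markers and all 8 interneuron markers had counts in every library. SS mouse 18 stood apart from SS mice 19 and 21. The nuclear RNA Malat1 was at 505.0 CPM in SS mouse 18, at 3761 and 5257 CPM in SS mice 19 and 21, at 262.8 to 505.5 CPM in C and at 988 to 1974 CPM in the running mice. The choroid plexus gene Ttr ran from 2.78 to 5095 CPM, and was at 821.6 CPM or higher in C mouse 2, SS mouse 18, all 3 SES mice and SER mouse 19. Counts of calls without C mouse 2 and SS mouse 18 are given below.

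Across the 9 genes, levels were highest in the ineffective responders. The SER mean was the highest of the 4 group means for Dlg4, Dlgap1, Dlgap3, Shank1, Shank2, Shank3 and Camk2a, the SES mean was the highest for Homer1, and the SS mean was the highest for Camk2b. In edgeR's quasi-likelihood test 2 of the 9 genes passed an adjusted p of 0.05, both in SER against C. These were Dlg4 and Camk2a, both higher in SER, while 1.19% of all genes tested passed in that comparison (0.853% higher). All 9 genes had a positive log2 fold change in SER against C, with a median of 0.48 beside a median of −0.0082 over all genes. In 6 of 9 genes every SER mouse lay above every C mouse, as in 12.6% of all genes, and 7 of 9 were higher at an unadjusted p under 0.05, as were 9.72% of all genes.

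**Figure D1:**
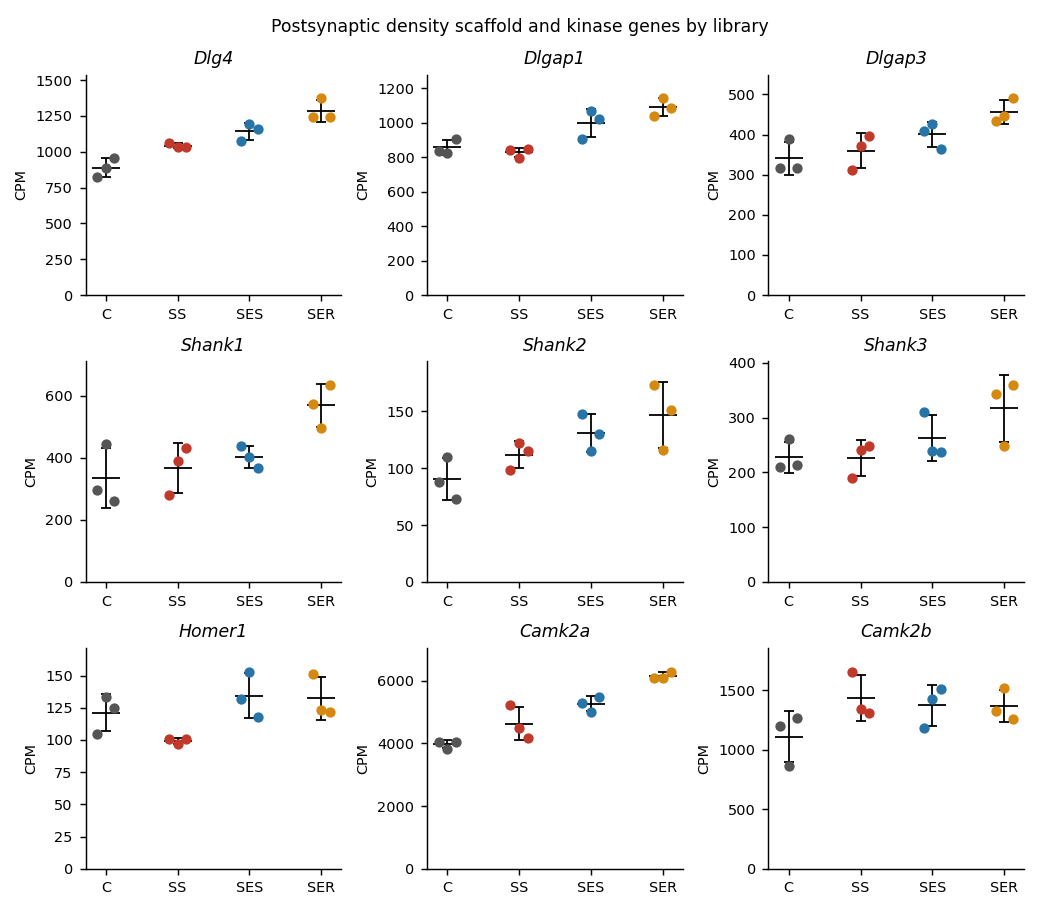
CPM of the 9 genes on the vertical axes (each starting at 0) by group; points are single mice, the line is the mean and the bar the SD over 3 mice. Dlg4 steps up from C to SS to SES to SER without overlap, Homer1 is lowest in SS, and the Camk2a values of SER lie between 6098 and 6284 CPM, above all other mice.

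In the other 5 comparisons none of the 9 genes passed in edgeR's test. In SS against C this was 0 of 9 beside 9.83% of all genes, with 4 genes at an unadjusted p under 0.05 (Dlg4, Camk2a and Camk2b higher, Homer1 lower; 28.2% of all genes), and DESeq2's Wald test called 1, Dlg4 (15.6% of all genes with an adjusted p in that test). In SES against SS it was 0 of 9 beside 0% of all genes, with Dlgap1 and Homer1 higher at an unadjusted p under 0.05 (3.93% of all genes higher), and DESeq2 called 0. In SER against SS it was 0 of 9 beside 0.0481% of all genes, and here 8 of the 9 genes, all except Camk2b, were higher at an unadjusted p under 0.05, as were 8.42% of all genes. DESeq2 called 5 of them (Dlg4, Dlgap1, Shank1, Homer1 and Camk2a), beside 3.70% of all genes, and without SS mouse 18 edgeR called 4 (Dlg4, Dlgap1, Homer1 and Camk2a), beside 16.5% of all genes. In SES against SER it was 0 of 9 beside 0.0275% of all genes, with Shank1 and Camk2a lower in SES at an unadjusted p under 0.05 (1.95% of all genes lower), and DESeq2 called 0. In SES against C it was 0 of 9 beside 0.179% of all genes, with 4 genes higher at an unadjusted p under 0.05 (Dlg4, Dlgap1, Shank2 and Camk2a; 8.27% of all genes higher), and DESeq2 called Dlg4 and Camk2a (4.34% of all genes). The comparisons share groups, so their values are not independent of each other. limma-voom called 0 of the 9 genes in each of these 5 comparisons. The groups did not overlap for 4 of the 9 genes in SS against C (3 higher, 1 lower; 26.9% of all genes in either direction). In the higher direction they did not overlap for 3 of 9 in SES against SS (6.33% of all genes), 6 of 9 in SER against SS (8.84%) and 3 of 9 in SES against C (12.8%).

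Leaving out both C mouse 2 and SS mouse 18 raised the counts for the 9 genes and for all genes. edgeR then called Homer1, lower, in SS against C (1 of 9, beside 24.8% of all genes) and Homer1, higher, in SES against SS (1 of 9, beside 9.71%). In SER against SS it called Dlg4, Dlgap1, Homer1 and Camk2a (4 of 9, beside 17.5%). In SES against C it called Camk2a at 0.41 (adjusted p = 0.0207; 1 of 9, beside 6.31%). In SER against C it called Dlg4, Camk2a, Shank1 at 0.69 (adjusted p = 0.04) and Shank2 at 0.68 (adjusted p = 0.0471), which is 4 of 9 beside 5.41% of all genes. Of the mice kept, Ttr was at 2.78 and 20.1 CPM in C and at 5.7 and 12.1 CPM in SS. It was at 821.6 to 4700 CPM in SES and 36.5 to 1080 CPM in SER. SES thus differed from C and SS in Ttr as well as in group, and the part of Ttr in these calls was not tested.

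**Figure D2:**
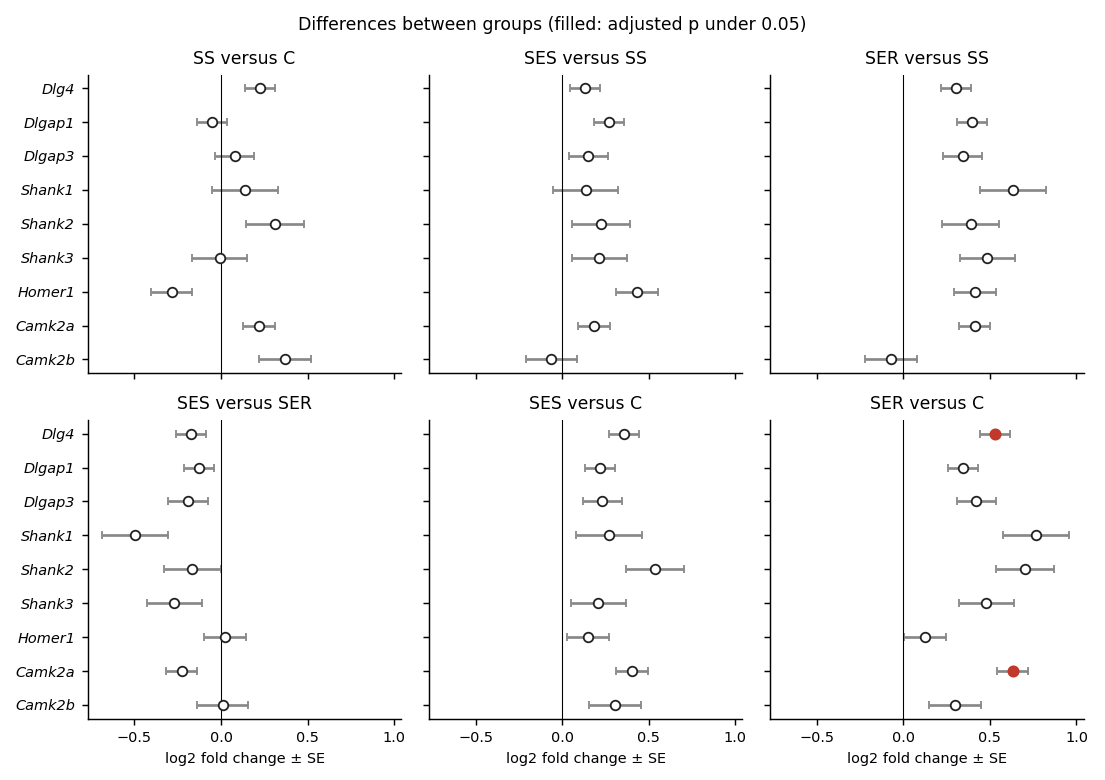
Log2 fold change (horizontal axis, first group against second) of the 9 genes in the 6 comparisons; bars are standard errors and filled points have an adjusted p under 0.05 in edgeR's test. The 2 filled points are Dlg4 and Camk2a in SER against C, and in SER against SS the points of 8 genes lie to the right of 0.

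Dlg4 (chromosome 11, 70017203 to 70045535 in mm10, plus strand) is the main scaffold of the density. It stood at 825, 887 and 958 CPM in C mice 2, 8 and 12, 1060.2, 1031 and 1034 in SS mice 18, 19 and 21, 1073, 1194 and 1157 in SES mice 9, 10 and 12 and 1241, 1374 and 1241 in SER mice 6, 19 and 20. No 2 groups overlapped, in the order C, SS, SES, SER. The group means were 889.6 ± 66.7 in C and 1285 ± 76.5 CPM in SER (SD, n = 3), and Dlg4 rose on the log2 scale by 0.53 ± 0.09 (adjusted p = 0.0211). The neighbouring steps did not pass in edgeR's test. On the log2 scale the difference was 0.23 ± 0.09 (adjusted p = 0.104) for SS against C, 0.13 ± 0.09 (adjusted p = 0.657) for SES against SS and −0.17 ± 0.09 (adjusted p = 1) for SES against SER. With offsets for GC content and transcript length the value of SS against C was 0.021 (adjusted p = 0.915), and SER against C was no longer called (0.45, adjusted p = 0.0504). Of its 2 transcript rows, NM_007864 held 83.2 to 90.7% of the Dlg4 counts in every library.

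Dlgap1 and Dlgap3 encode SAPAP proteins that join PSD-95 to the Shank layer. Dlgap1 (chromosome 17, 69969073 to 70821413) stood at 839, 825 and 907 CPM in C mice 2, 8 and 12, 840.4, 797 and 846 in SS mice 18, 19 and 21, 906, 1066 and 1019.9 in SES mice 9, 10 and 12 and 1038, 1143 and 1088 in SER mice 6, 19 and 20. All 6 running mice lay above all 3 SS mice, and SES mouse 9 fell within the C range. Its log2 fold change was 0.40 ± 0.09 (adjusted p = 0.0916) for SER against SS and 0.27 ± 0.09 (adjusted p = 0.524) for SES against SS. Neither passed in edgeR's test, and with the highest row in place of the sum the first was 0.13 (adjusted p = 0.777). For SER against C it was 0.35 ± 0.09 (adjusted p = 0.07), which did not pass either.

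Dlgap3 (chromosome 4, 127168305 to 127237022), which is known for the compulsive grooming of mice that lack it, stood at 317, 388 and 317 CPM in C mice 2, 8 and 12, 312, 371 and 397 in SS mice 18, 19 and 21, 409, 427 and 365 in SES mice 9, 10 and 12 and 434, 446 and 491 in SER mice 6, 19 and 20. The 3 SER values lay above the other 9, while C, SS and SES overlapped. The log2 fold change was 0.42 ± 0.11 (adjusted p = 0.0845) for SER against C, 0.34 ± 0.11 (adjusted p = 0.15) for SER against SS and −0.19 ± 0.11 (adjusted p = 1) for SES against SER.

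The Shank genes encode the deep scaffolds that organise the cytoskeletal side of the density, and their levels varied more within groups than those of Dlg4. Shank1 (chromosome 7, 44308916 to 44360094) stood at 296, 443 and 262 CPM in C mice 2, 8 and 12, 279, 389.6 and 432 in SS mice 18, 19 and 21, 438, 404 and 367 in SES mice 9, 10 and 12 and 574, 497 and 634 in SER mice 6, 19 and 20. The SER mice were above all others, C mouse 8 was far above C mice 2 and 12, and SS mouse 18 was below SS mice 19 and 21. The coefficient of variation was 29% in C and 21.6% in SS, against 7.49% and 1.54% for Dlg4. Shank1 had the widest gap among the 9 genes between the highest and the lowest group mean, 1.70-fold between SER and C. Its log2 fold change was 0.77 ± 0.19 (adjusted p = 0.068) for SER against C, 0.63 ± 0.19 (adjusted p = 0.13) for SER against SS and −0.50 ± 0.19 (adjusted p = 1) for SES against SER. None of these passed, and without C mouse 8 the first passed in edgeR's test at 1.04 (adjusted p = 0.0495). It did not pass without any other single mouse of SER or C (adjusted p = 0.0655 to 0.23).

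Shank2 (chromosome 7, 143978077 to 144426043) had the lowest level per length of the 9 genes. It stood at 87.8, 109.6 and 72.8 CPM in C mice 2, 8 and 12, 98.7, 122 and 115 in SS mice 18, 19 and 21, 148, 115 and 129.6 in SES mice 9, 10 and 12 and 173, 116 and 151 in SER mice 6, 19 and 20. All 6 running mice lay above all 3 C mice, and SS overlapped C, SES and SER. The log2 fold change was 0.70 ± 0.17 (adjusted p = 0.0634) for SER against C and 0.54 ± 0.17 (adjusted p = 0.166) for SES against C, and neither passed. With the highest row in place of the sum SER against SS went from 0.39 to 0.14 (adjusted p = 0.737). Without SER mouse 19 the value of SER against C passed at 0.85 (adjusted p = 0.0418, edgeR). It did not pass without any other single mouse of SER or C (adjusted p = 0.0701 to 0.206).

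Shank3 (chromosome 15, 89493013 to 89560261), whose loss in people underlies Phelan-McDermid syndrome, stood at 209, 261 and 213 CPM in C mice 2, 8 and 12, 189, 241 and 248 in SS mice 18, 19 and 21, 311, 239 and 238 in SES mice 9, 10 and 12 and 343, 247 and 359 in SER mice 6, 19 and 20. SER mice 6 and 20 were the highest of the 12, SES mouse 9 came next, and SER mouse 19 lay within the C range. Its log2 fold change was 0.48 ± 0.16 (adjusted p = 0.149) for SER against SS and 0.48 ± 0.16 (adjusted p = 0.137) for SER against C. Neither passed.

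The Shank transcripts are long and rich in G and C. The main rows of Shank1, Shank2 and Shank3 have 9826, 7666 and 7131 bases and a GC content of 61.5%, 55.1% and 61.7%, against medians of 2989 bases and 50.45% over all genes tested. Dlgap3 has a GC content of 65.6%, above 99.6% of these genes, and Homer1 with 41.3% lies above 7.74% of them. When each library's trend on GC content and transcript length was removed, 0 of the 9 genes passed in SER against C in edgeR's test. Calls over all genes in that comparison fell from 173 to 21. The value of Shank1 went from 0.77 to 0.38, that of Shank2 from 0.70 to 0.42, that of Shank3 from 0.48 to 0.16 and that of Dlgap3 from 0.42 to 0.22. In SS against C the same offsets moved the values of Shank1 from 0.14 to −0.36, of Shank2 from 0.31 to −0.031, of Shank3 from −0.0069 to −0.42 and of Dlgap3 from 0.080 to −0.18. In SER against SS they moved Shank1 from 0.63 to 0.74 and Shank2 from 0.39 to 0.46. There Shank3 went from 0.48 to 0.57 and Dlgap3 from 0.34 to 0.40. Dlg4 went from 0.30 to 0.43 and Camk2a from 0.41 to 0.45. Dlgap1 went down from 0.40 to 0.34 and Homer1 from 0.41 to 0.33. In that comparison 0 of the 9 genes passed with the offsets, beside 12 of all genes.

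Homer1 (chromosome 13, 93303757 to 93405129, plus strand) encodes long forms that cross-link Shank and metabotropic receptors through a coiled coil, and a short form, Homer1a, that lacks the coiled coil, is induced by neuronal activity and uncouples these links. The short form arises where transcription does not splice out of the fifth exon and reads on to a stop codon. The 4 rows differ after base 93356079, and their sequences (GENCODE M21, GRCm38, plus strand) are shown to tell the forms apart. Lower case is the last 30 bases of the coding exon part that all 4 rows share, chr13:93356050-93356079. Capitals are what follows: the 34 bases to the end of the stop codon in the short form (chr13:93356080-93356113), the 36-base cassette exon in the most abundant long form (chr13:93386345-93386380), and the first 36 bases of the next exon in the other 2 long forms (chr13:93387524-93387559).
Homer1 short form, NM_011982: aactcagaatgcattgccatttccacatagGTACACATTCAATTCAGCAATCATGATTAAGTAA
Homer1 long form with cassette exon, NM_147176: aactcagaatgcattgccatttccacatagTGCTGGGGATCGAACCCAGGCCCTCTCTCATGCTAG
Homer1 long form without it, NM_001284189: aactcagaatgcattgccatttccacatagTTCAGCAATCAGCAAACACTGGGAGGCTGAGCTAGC
The fourth row, NM_152134, has the same letters in this window as NM_001284189 and another first exon. The coding sequences have 558 bases in the short form and 1098, 1062 and 1110 bases in NM_147176, NM_001284189 and NM_152134.

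Homer1 summed over its rows stood at 105, 133 and 125 CPM in C mice 2, 8 and 12, 101, 96.8 and 101 in SS mice 18, 19 and 21, 132, 153 and 118 in SES mice 9, 10 and 12 and 152, 124 and 122 in SER mice 6, 19 and 20. The 3 SS values were the lowest of the 12 and close to each other, and the other 3 groups overlapped. Homer1 differed on the log2 scale by −0.29 ± 0.12 (adjusted p = 0.138) for SS against C, 0.43 ± 0.12 (adjusted p = 0.524) for SES against SS and 0.41 ± 0.12 (adjusted p = 0.126) for SER against SS. None of these passed in edgeR's test. Without C mouse 2 and SS mouse 18 all 3 passed, at −0.40, 0.44 and 0.43 (adjusted p = 0.0393, 0.0353 and 0.0265). With the GC content and length offsets the value of SS against C was −0.069 (adjusted p = 0.793).

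Most Homer1 counts were on the long row NM_147176, with 74.3 to 94.9% of them in the 12 libraries. Its log2 fold change was −0.27 ± 0.12 in SS against C (adjusted p = 0.256 in edgeR's test over 20402 transcript rows), 0.34 ± 0.12 in SES against SS (adjusted p = 0.783) and 0.43 ± 0.12 in SER against SS (adjusted p = 0.258). No Homer1 row passed in any comparison, beside 0.00980% of rows in SS against C, 0% in SES against SS, 0.0392% in SER against SS, 0.0245% in SES against SER, 0.0196% in SES against C and 0.123% in SER against C. The rows NM_001284189 and NM_152134 were at 0 in several libraries, and their fold changes are not given.

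The short form took a small and variable share of the Homer1 counts. In C mice 2, 8 and 12 it was 2.31% (95% Wilson interval 1.58 to 3.37), 6.05% (5.05 to 7.22) and 3.29% (2.49 to 4.34). In SS mice 18, 19 and 21 it was 8.62% (7.03 to 10.5), 6.81% (5.53 to 8.35) and 7.91% (6.51 to 9.59). In SES mice 9, 10 and 12 it was 12.0% (10.6 to 13.4), 7.36% (6.36 to 8.5) and 4.20% (3.32 to 5.31). The 3 SS shares lay above the 3 C shares, while SES spanned the SS range. In SER mice 6, 19 and 20 it was 13% (11.6 to 14.6), 1.60% (1.07 to 2.39) and 5.11% (3.96 to 6.56), so the highest and the lowest share of all 12 were in the same group. The intervals cover counting error only, not the division of reads among rows. The shares are of counts and were not corrected for length. The short row NM_011982 has 5713 bases and the main long row NM_147176 has 3052, so they are not shares of transcripts.

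The mean share was 7.78% ± 0.912 for the SS mice against 3.88% ± 1.94 for the C mice (SD, n = 3), a difference of 3.89 percentage points with an exact two-sided permutation p of 0.1, the smallest that 3 against 3 allows (adjusted p = 0.6 over 6 comparisons). It was 7.84% ± 3.90 in SES and 6.57% ± 5.84 in SER, and the exact permutation p was 1 for SES against SS, 0.7 for SER against SS and 0.8 for SES against SER. In CPM, the short form stood at 2.43, 8.06 and 4.12 in C, 8.70, 6.59 and 7.98 in SS, 15.8, 11.3 and 4.97 in SES and 19.7, 1.98 and 6.22 in SER. The immediate early gene Arc stood at 142.1, 71.9 and 176.2 CPM in SER mice 6, 19 and 20, and Fos at 18.1, 13.7 and 35.8 CPM. SER mouse 19, lowest in the Homer1 short form, was also the lowest SER mouse in Arc and Fos, while SER mouse 20 was highest in both genes but not in the short form. Egr1 stood at 139.1, 77.8 and 123 CPM in these mice and Npas4 at 6.4, 10.1 and 13.3 CPM. None of the 14 immediate early genes followed here passed in edgeR's test in any of the 6 comparisons.

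**Figure D3:**
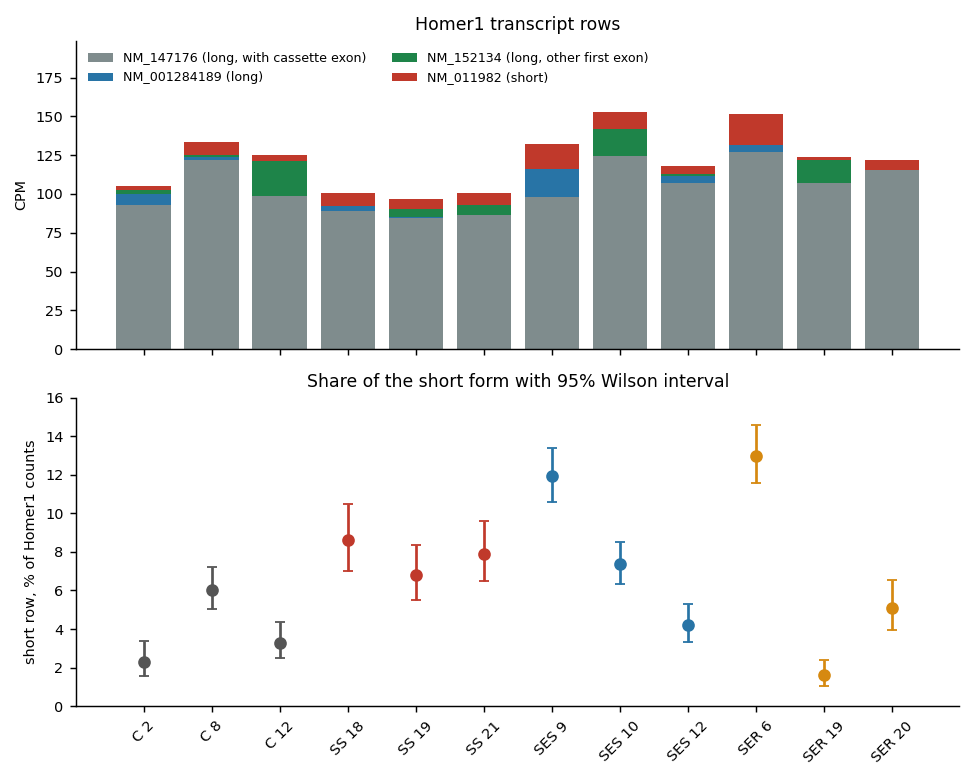
Homer1 transcript rows by library. Above, stacked bars give the CPM of the 4 rows; below, points give the short row NM_011982 as a percentage of all Homer1 counts with 95% Wilson intervals, coloured by group. The SS libraries have the lowest totals, and the short share runs from 1.60% to 13% within SER.

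Of the kinase subunits, Camk2a was called in SER against C and Camk2b in no comparison in edgeR's test. Camk2a (chromosome 18, 60925307 to 60988152) stood at 4057, 3824 and 4058 CPM in C mice 2, 8 and 12, 5220.2, 4509 and 4171 in SS mice 18, 19 and 21, 5296, 5006 and 5485 in SES mice 9, 10 and 12 and 6098, 6103 and 6284 in SER mice 6, 19 and 20. The C mice were the lowest 3 and the SER mice the highest 3 of the 12, and SS mouse 18 fell among the SES mice. Camk2a rose from 3979.5 ± 135 CPM in C to 6162 ± 106 CPM in SER (SD, n = 3), on the log2 scale by 0.63 ± 0.09 (adjusted p = 0.0119). The log2 fold change was 0.41 ± 0.09 (adjusted p = 0.0916) for SER against SS, 0.40 ± 0.09 (adjusted p = 0.111) for SES against C and −0.23 ± 0.09 (adjusted p = 1) for SES against SER, none of which passed. With the GC content and length offsets SER against C was no longer called (0.48, adjusted p = 0.0762), and SS against C went from 0.22 to 0.034 (adjusted p = 0.885). Without SS mouse 18 the value of SER against SS passed at 0.51 (adjusted p = 0.00119, edgeR). It did not pass without any other single mouse of SER or SS (adjusted p = 0.136 to 0.397).

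Camk2b (chromosome 11, 5969629 to 6066357, minus strand) stood at 1199.9, 866 and 1262 CPM in C mice 2, 8 and 12, 1653, 1339 and 1305 in SS mice 18, 19 and 21, 1183, 1424 and 1509 in SES mice 9, 10 and 12 and 1322, 1514 and 1254 in SER mice 6, 19 and 20. SS mouse 18 was the highest and C mouse 8 the lowest of the 12, and the running groups overlapped SS. On the log2 scale Camk2b differed by 0.37 ± 0.15 (adjusted p = 0.123) for SS against C and −0.071 ± 0.15 (adjusted p = 0.843) for SER against SS, and neither passed. The second turned to 0.052 without SS mouse 18 and to 0.028 with the GC content and length offsets.

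The calls of Dlg4 and Camk2a in SER against C depended on single libraries as well as on the offsets. Without SER mouse 6 the log2 fold changes were 0.56 and 0.64 and neither passed (adjusted p = 0.0785 and 0.0591), nor without SER mouse 20 (0.56 and 0.62, adjusted p = 0.072 and 0.0644), and Dlg4 did not pass without C mouse 8 (0.53, adjusted p = 0.0685). With these and each other library of the 2 groups left out, the value of Dlg4 stayed between 0.48 and 0.60 and that of Camk2a between 0.61 and 0.66. In DESeq2's Wald test 6 of the 9 genes were called in SER against C, adding Dlgap1, Dlgap3, Shank1 and Shank2, beside 5.64% of all genes.

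The difference between the 2 groups of running mice was tested directly and no gene of the 9 passed, each with an adjusted p of 1 in edgeR's test. The 95% interval of the log2 difference (SES minus SER) ran from −0.36 to 0.015 for Dlg4, from −0.91 to −0.088 for Shank1 and from −0.42 to −0.031 for Camk2a. For Homer1 it ran from −0.24 to 0.28 and for Camk2b from −0.31 to 0.33. In Dlg4, Dlgap3, Shank1 and Camk2a all 3 SER mice lay above all 3 SES mice, which held for 5.36% of all genes.

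On a scale per length (CPM per kilobase of transcript, from GENCODE M21 lengths), which allows levels of different genes to be compared, Camk2a was the most abundant of the 9 in C at 932 ± 169.7, followed by Camk2b at 280 ± 54.8, Dlg4 at 244.3 ± 18.2 and Dlgap1 at 172 ± 7.42 (SD, n = 3). Dlgap3 stood at 87.5 ± 10.6, Homer1 at 38.3 ± 4.20, Shank1 at 33.9 ± 9.83, Shank3 at 31.9 ± 4.05 and Shank2 at 11.6 ± 2.41. Homer1 and Shank1, and likewise Shank1 and Shank3, differed by less than the SD of Shank1. In SER the same scale gave 1266 ± 16.7 for Camk2a, 350.1 ± 23.1 for Dlg4 and 57.9 ± 6.99 for Shank1. Values on this scale depend on how counts were divided among rows of unlike length. For Camk2a, C mouse 12 had 602.8 CPM on the 1734-base row NM_001286809, where C mice 2 and 8 had 0. The main row NM_177407 has 4970 bases.

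The division of counts among rows also differed between libraries of the same group for Dlgap1, Shank2 and Camk2a. Dlgap1 row NM_177639, the longest coding form, held 29.0, 26.8 and 15.4% of Dlgap1 counts in C mice 2, 8 and 12, 37.5, 32.8 and 21.8% in SS mice 18, 19 and 21, 39.7, 21.0 and 38.7% in SES mice 9, 10 and 12 and 43.2, 33.0 and 49.6% in SER mice 6, 19 and 20. C mouse 12, SS mouse 21 and SES mouse 10 were the lowest of their groups. In these same 3 libraries the Camk2a row NM_001286809 held 14.8, 5.70 and 6.66% of Camk2a counts, and at most 0.544% in the other 9. Shank2 row NM_001113373 ranged from 17.3% in SS mouse 18 to 41.8% in SER mouse 20. These rows were chosen after their values had been seen, and no test was made on them. Taking the row with the highest mean count in place of the sum kept Dlg4 and Camk2a called in SER against C (0.50 and 0.73, adjusted p = 0.0385 and 0.0236), while Dlgap1 turned to −0.065.

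**Figure D4:**
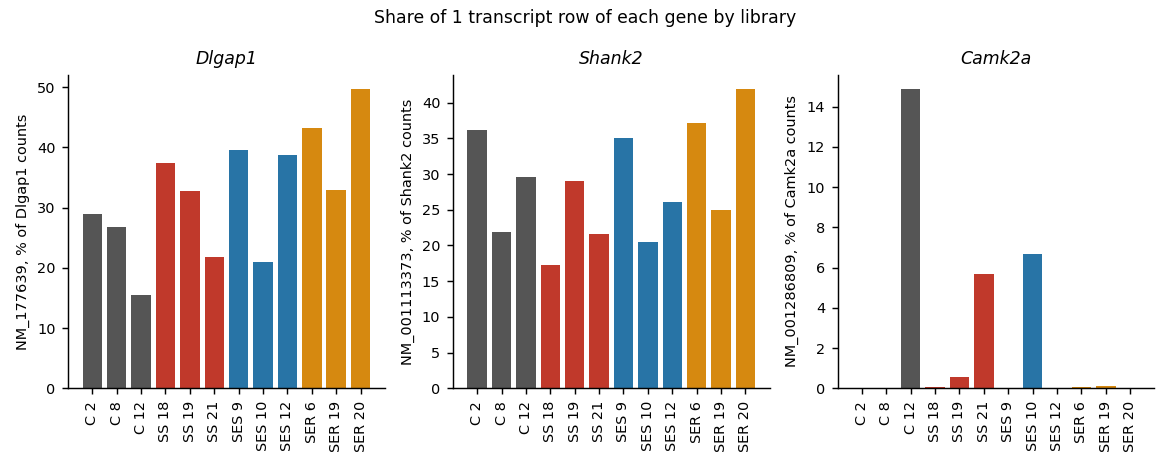
Share of 1 transcript row of Dlgap1, Shank2 and Camk2a in the counts of its gene (vertical axes, percent) in each of the 12 libraries, coloured by group. C mouse 12, SS mouse 21 and SES mouse 10 have low Dlgap1 NM_177639 and high Camk2a NM_001286809 shares.

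Other genes of the density were followed as a list of 37, all of them tested. In SER against C 6 of 37 were higher and 0 lower at an adjusted p under 0.05 (1.19% of all genes), and their median log2 fold change was 0.24 beside −0.0082 over all genes. Agap2, a GTPase-activating protein of the density, rose from 1214 ± 68.9 to 1834 ± 63.3 CPM (SD, n = 3; log2 fold change 0.59 ± 0.08, adjusted p = 0.011). The spine-shaping RapGAP gene Sipa1l1 (0.64 ± 0.11, adjusted p = 0.0298), the densin gene Lrrc7, whose product binds the kinase (0.74 ± 0.13, adjusted p = 0.0298), and the Arf exchange factor gene Iqsec2 (0.59 ± 0.11, adjusted p = 0.0325) also rose. In SS against C 3 of 37 were higher and 0 lower (9.83% of all genes), among them the actin-binding drebrin gene Dbn1 (0.51 ± 0.10, adjusted p = 0.0223) and Agap2 (0.32 ± 0.08, adjusted p = 0.0351). In edgeR's test 0 of 37 passed in SES against SS, SER against SS, SES against SER and SES against C. At an unadjusted p under 0.05, 4 were higher in SES against SS (3.93% of all genes), 13 higher and 1 lower in SER against SS (8.42% of all genes higher), 1 higher and 5 lower in SES against SER (1.95% of all genes lower) and 16 higher in SES against C (8.27%). DESeq2 called 0, 8, 0 and 5 of the 37 in these comparisons, with 3.70% of all genes called in SER against SS and 4.34% in SES against C. With C mouse 2 and SS mouse 18 both dropped, edgeR called 3 in SES against SS (9.71% of all genes), 9 in SER against SS (17.5%) and 6 in SES against C (6.31%). Without SS mouse 18 alone it called 3 in SES against SS and 9 in SER against SS (16.5% of all genes). Over all genes, leaving out any 1 library gave at most 1283 calls in SES against SS. The count in SER against C was 9 with both mice dropped (5.41% of all genes) and 12 in DESeq2 (5.64%). It was 1 with the GC content and length offsets, 2 with Malat1 as a covariate and 3 with the highest row per symbol. Calls over all genes in these fits were 21, 96 and 54, against 173 in the main fit. The count among the 37 was 3, 2 and 1 without C mouse 2, 8 or 12, and 0 without SER mouse 6 or SER mouse 20. Over all genes, leaving out 1 library gave 6 to 173 calls in SER against C. The count in SS against C was 7 with both mice dropped (24.8% of all genes), 9 without SS mouse 18 alone (3797 calls over all genes), and 5 in DESeq2 (15.6%). It was 0 with the offsets, the Malat1 covariate, the highest row or only the 2 groups compared, and 0 without C mouse 8, C mouse 12, SS mouse 19 or SS mouse 21. Calls over all genes were also 0 with the offsets, the Malat1 covariate or only the 2 groups, and 587 with the highest row. They were 0 without C mouse 8, SS mouse 19 or SS mouse 21, and 78 without C mouse 12.

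**Figure D5:**
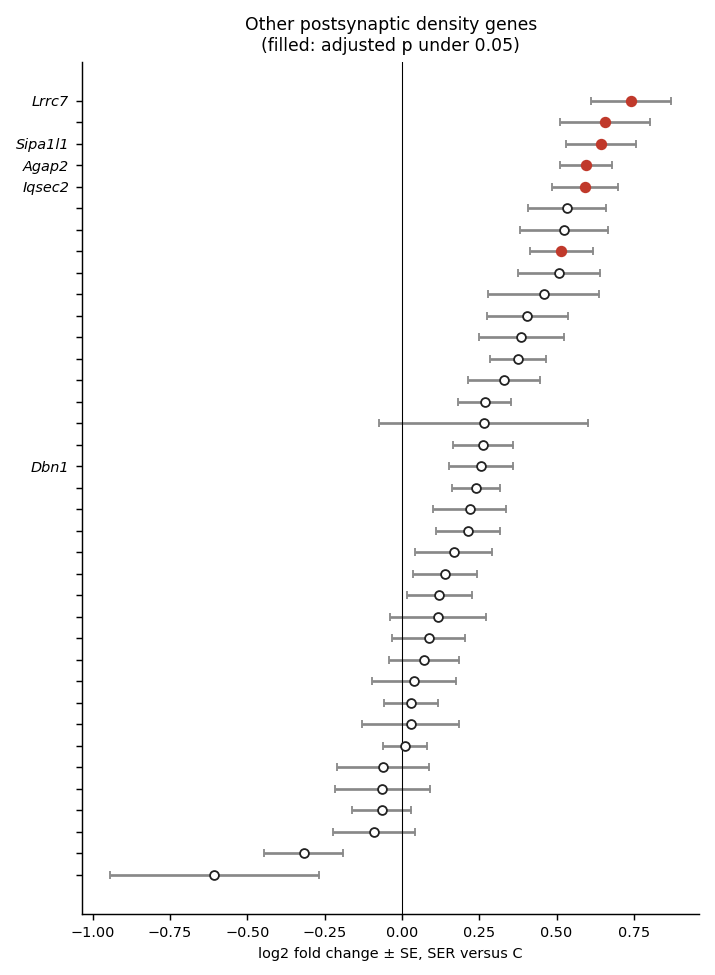
Log2 fold change (horizontal axis) of the 37 other postsynaptic density genes in SER against C, ordered by size, with labels on genes named in the text; bars are standard errors and filled points have an adjusted p under 0.05 in edgeR's test. The 6 filled points are all to the right of 0, and Agap2, Sipa1l1, Lrrc7 and Iqsec2 are among them.

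Of the marker sums given next, those of astrocytes and microglia set SER apart from all other mice, and the others overlapped at least 1 other group. The 8 astrocyte markers summed to 8718 to 10008 CPM in SER, 6661 to 8207 in SES, 6104 to 6783 in SS and 6294 to 7052 in C. In SER against C 3 of the 8 were called higher (0.853% of all genes). The log2 fold change in that comparison was positive for 7 of the 8. The 8 microglia markers summed to 474 to 488 CPM in SER, above all other mice (413 to 421 in C, 369 to 424 in SS and 353 to 444 in SES). In SER against C 1 of the 8 was called higher (0.853% of all genes). These 8 did not all go the same way: log2 fold changes in SER against C ran from −0.87 to 0.59, with 5 of the 8 positive. The 8 endothelial and mural markers summed to 135 to 146 CPM in SER, below the 181 to 249.6 in C, with 143 to 195 in SS and 128 to 181 in SES. In SER against C 2 of the 8 were called lower, beside 49 of all 14541 genes. The 7 CA1 and subiculum markers summed to 723 to 735 CPM in SER, 607 to 736 in SES, 401 to 575 in SS and 462 to 677 in C. Their log2 fold changes in SER against C ran from −0.48 to 0.71, with 5 of the 7 positive. The 8 excitatory neuron markers summed to 2938 to 3286 CPM in SER and 2376 to 3013 in C, which overlap, and Slc17a7, the vesicular glutamate transporter of these neurons, differed by 0.18 ± 0.11 (log2) in SER against C (adjusted p = 0.4). None of these markers was at 0 in any library, and their part in the values of Dlg4 and Camk2a was not tested. In SER against C edgeR called none of the 8 dentate granule cell, 6 CA3, 8 interneuron and 10 choroid plexus markers. Of 8 oligodendrocyte and myelin markers it called 1, lower, beside 49 of all 14541 genes. With Malat1 as a covariate Dlg4 and Camk2a were still called in SER against C, at 0.53 and 0.74 (adjusted p = 0.0403 and 0.00611).

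Likeness of pattern was measured as the root mean square difference of log2 CPM, each gene centred on its mean over the 12 libraries. The genes nearest to Dlg4 were Clu and Fbxl16, at 0.065 and 0.073, where the pattern of Dlg4 itself spans 0.20 on that measure. Fbxl16 was nearest to Camk2a at 0.074, Pabpc1 and Inafm2 to Dlgap1 at 0.064 and 0.080, and Cep170b and Dact3 to Dlgap3 at 0.067 and 0.084. Tcf4 and Crispld1 were nearest to Homer1 at 0.092 and 0.099, Ptk2b and Arhgef25 to Camk2b at 0.085 and 0.096, and Adcy5 and Pou3f3 to Shank3 at 0.11 and 0.13. Shank2 was nearest to Sipa1l1 and Nwd1 at 0.12 and 0.13, and Shank1 to Ttbk1 and Cep170b at 0.17 and 0.18. Among the 9 genes the closest pair was Dlg4 and Dlgap1 at 0.11 and the farthest was Shank1 and Camk2b at 0.47.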

How the data were processed

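Total RNA of the ventral hippocampus was made into directional libraries, per the labels' protocols. The authors deposited 1 table per mouse with an estimated count for each of 33299 transcript rows, and all values were whole numbers. TopHat and mm10 are named in the submitters' processing notes. No source used here names the counting program, its strand setting or its annotation.

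Rows were summed per gene symbol. One edgeR 4.0.16 quasi-likelihood model (R 4.3.3) was fitted to all 12 libraries and 4 groups with TMM scaling (factors 0.97 to 1.039) and filterByExpr (minimum count 10). The 6 pairs of groups were tested with Benjamini-Hochberg adjustment over 14541 genes, and a call is an adjusted p under 0.05. The fit has 8 residual degrees of freedom and a biological coefficient of variation of 15.7%. Homer1 rows were fitted the same way among all transcript rows. Shares were compared by exact two-sided permutation tests, in which 3 against 3 cannot go below 0.1. The procedure was tested on simulated data.

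All 22 transcript rows of the 9 genes were matched to GENCODE M21 (GRCm38, the build called mm10), which gave coordinates, lengths and GC content. Alternatives were DESeq2 1.42.0, limma-voom (limma 3.58.1), no filter, only the 2 groups compared, the highest row per symbol, a Malat1 covariate, GC content and length offsets (splines of 5 degrees of freedom) and leaving libraries out. Counts for the 37 other density genes under these alternatives were added after the data had been seen. The 9 genes and all lists were chosen with earlier results of these data known. The genes named are the 9, the 4 called genes with the smallest p among the 37 in each comparison, the 2 genes nearest in pattern to each of the 9, and Fos, Arc, Egr1, Npas4, Malat1, Ttr and Slc17a7, except 2 genes that are not reported here.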

Additional observations from a re-analysis of the deposited data

How the results depend on the processing

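Counts of calls depended on the processing, and some fold changes changed sign. Over all genes, SS against C gave 1430 calls, and 2219 in DESeq2's Wald test, 0 with only the 2 groups, 587 with the highest row, 0 with Malat1 as covariate, 0 with the GC content and length offsets and 3644 without C mouse 2 and SS mouse 18. In the same order of alternatives, where the count moved by over 1.5 times, SES against SS went from 0 to 13 in DESeq2 and 1430 without the 2 mice. SER against SS went from 7 to 538 in DESeq2, 15 without the filter, 3 with only the 2 groups, 12 with the offsets and 2573 without the 2 mice. SES against C went from 26 to 411 in DESeq2, 160 with only the 2 groups, 11 with the highest row, 5 with Malat1, 15 with the offsets and 929 without the 2 mice. SER against C went from 173 to 756, 281, 54, 96, 21 and 796 in that order. Leaving out 1 library gave 0 to 3797 calls in SS against C, 0 to 1283 in SES against SS, 4 to 2434 in SER against SS, 4 in SES against SER, 0 to 27 in SES against C and 6 to 173 in SER against C.

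Of the 9 genes, DESeq2 called 1, 5, 2 and 6 in SS against C, SER against SS, SES against C and SER against C, and leaving out the 2 mice gave 1, 4, 1 and 4, and 1 in SES against SS. In SER against C no filter gave 4 and the offsets 0, beside 208 and 21 calls over all genes. Leaving out 1 library gave 0 to 4 in SER against SS, beside 4 to 2434 calls over all genes. In SER against C it gave 0 to 3, beside 6 to 173. Reversed values were, with the offsets, Dlgap3 −0.18, Shank1 −0.36 and Shank2 −0.031 in SS against C, Shank1 −0.048 and Shank3 −0.053 in SES against C, and Camk2b 0.022 in SES against SS, 0.028 in SER against SS and −0.0055 in SES against SER. With Malat1, Dlgap3 was −0.028 and Shank1 −0.047 in SS against C. Without the 2 mice, Shank3 was 0.037 in SS against C, Shank1 −0.027 and Camk2b 0.054 in SES against SS, and Camk2b 0.051 in SER against SS. With the highest row, Dlgap1 was 0.10 and Homer1 −0.084 in SES against SER, and Dlgap1 −0.065 in SER against C. Camk2b in SES against SER was −0.00011 with DESeq2's size factors and −0.00012 in its Wald test. The cause of these changes was not tested.

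Leaving out 1 library reversed Shank1 (−0.0086 to 0.40) and Shank3 (−0.079 to 0.10) in SS against C, Shank1 (−0.027 to 0.27) and Camk2b (−0.13 to 0.054) in SES against SS, Camk2b (−0.14 to 0.052) in SER against SS, and Homer1 (−0.081 to 0.13) and Camk2b (−0.070 to 0.10) in SES against SER. Homer1 row NM_011982 ran from −0.92 to 0.74 in SER against SS, −0.28 to 1.38 in SES against SER and −0.26 to 1.5 in SER against C, and NM_147176 from −0.024 to 0.20 in SES against C. The difference in short-form share ran from 3.11 to 4.97 points in SS against C, −2.00 to 1.88 in SES against SS, −4.42 to 1.27 in SER against SS, −1.21 to 4.49 in SES against SER, 1.90 to 5.77 in SES against C and −0.531 to 5.17 in SER against C, and as a log2 ratio of short to long rows SES against SS was −0.11. No paired analysis was possible because no 2 groups share 2 animal numbers.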
